A study of Homo sapiens with 6 samples.

Results

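The plasminogen activator system was examined through 4 genes of a deposited table of 15379 gene symbols, chosen by name for their roles. The choice was made with earlier results of these data known. PLAU encodes urokinase and PLAT encodes tissue plasminogen activator, the secreted proteases that turn plasminogen into plasmin. PLAUR encodes the urokinase receptor, and SERPINE2 encodes protease nexin-1, a secreted serpin that inhibits both activators and thrombin. All 4 genes had a row in the table, and all 4 passed the filter on low counts. The samples were HaCaT cells, an immortalised human keratinocyte line, with 3 libraries of cells kept at 37C (the control) and 3 of cells exposed to 41C, in both groups for 1 hour per day on 3 days. No genotype or further agent is given for either group, and neither the time from the last exposure to RNA extraction nor separate cultures for the replicates are stated. The p-values therefore measure only the spread between these libraries, which may be technical. The libraries held 19659112 to 20856144 counts.

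Plasmin is a broad protease that dissolves fibrin and cleaves matrix proteins, and it is made where the activators meet plasminogen. Urokinase bound to its receptor, which is anchored to the membrane by a lipid, concentrates this activity at the cell surface, whereas tissue plasminogen activator works mainly on fibrin. In skin the system is known from wound healing, where migrating keratinocytes carry urokinase and its receptor. Serpins form covalent complexes with the activators, and endocytic receptors take the complexes into the cell.

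The labelled cell type was checked against markers. All 6 keratinocyte markers (KRT5, KRT14, TP63, KRT17, DSG3 and ITGB4) were present, with a summed level of 5233 to 5844 CPM (counts scaled to a common library size) at 37C and 6186 to 6488 CPM at 41C. The 6 melanocyte markers summed to 1.96 to 2.68 CPM at 37C and 1.71 to 2.96 CPM at 41C. Of these, MLANA, TYR and SOX10 had no row and entered the sum as 0. The 6 fibroblast markers, of which COL1A2 had no row and entered as 0, summed to 13.9 to 16.7 CPM at 37C and 15.8 to 18.0 CPM at 41C. The 4 leukocyte markers stayed below 1 CPM in every library. The part of these marker levels in the results below was not tested.

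The genes are spread over the genome, and the positions below are those of GENCODE release 29 on GRCh38. PLAU lies at chr10:73909177-73917497 on the plus strand and PLAUR at chr19:43646095-43670547 and SERPINE2 at chr2:223975112-224039319, both on the minus strand. Over 7529 bases PLAU overlaps C10orf55, a gene on the opposite strand that had no row of its own. Whether the counting used strand is not stated, so reads of C10orf55 may be included with PLAU. PLAUR holds the small RN7SL368P within it on its own strand, and SERPINE2 overlaps no other annotated gene.

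Stretches before annotated start sites are shown for SERPINE2, PLAUR and PLAU, and PLAT had no promoter window in the source used. Transcription factors of the AP-1 family are known regulators of PLAU and PLAUR. They come from RefSeq promoter windows on GRCh38.p14, in which 3 of the 4 genes matched. The first is the 250 bases before one of the SERPINE2 start sites, chr2:224031479-224031728 on the minus strand, with the CCAAT motif, read on either strand, in capitals. The second is a stretch of PLAUR, chr19:43670338-43670366 on the minus strand, with a match to the AP-1 motif TGANTCA in capitals. The third is a stretch of PLAU, chr10:73911070-73911098 on the plus strand, with 2 copies of the GC box GGGCGG in capitals.
SERPINE2: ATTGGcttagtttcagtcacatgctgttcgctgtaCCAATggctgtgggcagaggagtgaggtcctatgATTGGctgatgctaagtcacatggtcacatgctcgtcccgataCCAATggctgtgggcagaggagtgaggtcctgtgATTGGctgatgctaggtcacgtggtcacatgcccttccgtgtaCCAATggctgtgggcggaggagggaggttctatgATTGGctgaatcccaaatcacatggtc
PLAUR: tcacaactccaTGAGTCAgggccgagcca
PLAU: gggagagggagGGGCGGcgccgGGGCGGg

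The SERPINE2 stretch holds 7 copies of CCAAT, beginning 250, 215, 181, 138, 104, 61 and 27 bases before the start, whereas the window of its other annotated start has 0. The copies at 215, 138 and 61 lie in near-repeats of the same letters, as do those at 181, 104 and 27. Of 35116 windows of the same length, 32% hold CCAAT at least once and 7 windows (0.0199%) hold it 7 times or more. This cut of 7 was taken from the SERPINE2 stretch itself. The AP-1 match of PLAUR begins 186 bases before the start, and 6.57% of all windows hold TGANTCA. In the windows of PLAU and SERPINE2 this motif had 0 matches. The PLAU window of the printed stretch holds 3 GC boxes, beginning 66, 51 and 40 bases before the start, and the other PLAU window holds 0. Of all windows, 42.6% hold at least 1 GC box and 13.9% hold 3 or more. The printed SERPINE2 stretch also holds 1 GC box, not in capitals, and the window of its other start holds 2. No window of the 3 genes held the paired heat shock motifs GAANNTTC or TTCNNGAA, which 5.78% and 6.62% of all windows hold. All motifs were searched on both strands and do not overlap each other in the printed stretches. Such matches describe letters in these windows only, and the counts do not say which start site was used.

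The transcripts differed far more between genes than between temperatures. Levels of different genes are compared as FPKM, the authors' count scaled to gene length and to the total of the library. At 37C the mean FPKM was 105.3 ± 1.68 for PLAU, 10.6 ± 0.686 for SERPINE2, 8.71 ± 1.69 for PLAT and 4.75 ± 0.350 for PLAUR (SD, n = 3). At 41C it was 115.0 ± 1.62, 13.1 ± 0.744, 5.97 ± 0.802 and 5.17 ± 0.378 in the same order. The order of the means was the same at both temperatures. The FPKM of PLAU was 9.97 times that of SERPINE2 at 37C and 8.81 times at 41C. Among neighbours in this order, SERPINE2 and PLAT overlapped at 37C, where PLAT ran from 7.18 to 10.5 FPKM and SERPINE2 from 9.78 to 11 FPKM. They did not overlap at 41C, where PLAT ran from 5.34 to 6.88 FPKM and SERPINE2 from 12.2 to 13.6 FPKM. PLAT and PLAUR showed the reverse: at 37C each library of PLAT lay above each of PLAUR, and at 41C they overlapped, with PLAUR at 4.76 to 5.51 FPKM.

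**Figure D1:**
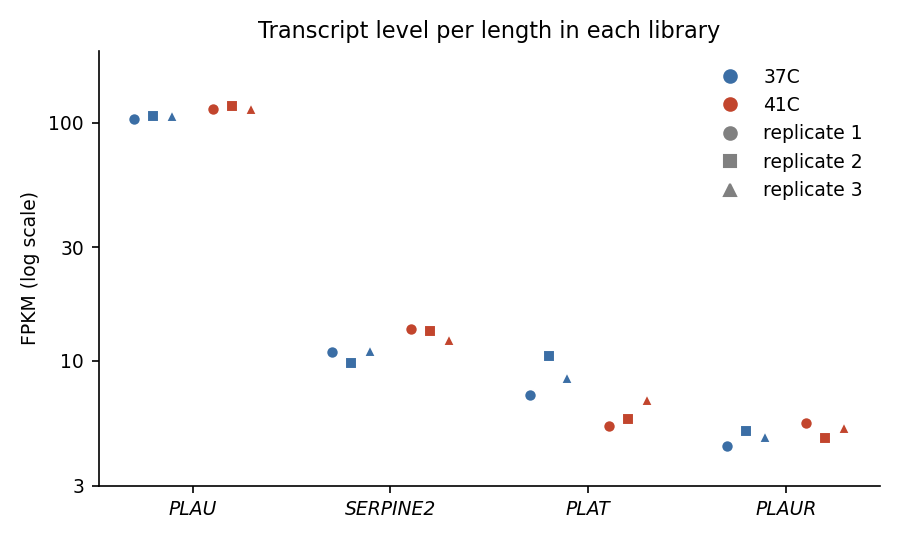
FPKM of each gene (vertical axis, log scale) in the 3 libraries at 37C (blue) and the 3 at 41C (red), with the replicate shown by the symbol. PLAU stands apart at over 100 FPKM in every library, and PLAT at 41C comes down to the level of PLAUR.

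Mean levels at 41C were higher for SERPINE2, PLAU and PLAUR and lower for PLAT. SERPINE2 had 1.25 times and PLAU 1.11 times its 37C level at 41C, with every library at 41C above every library at 37C. PLAT had 0.694 of its 37C level, with every library at 41C below every library at 37C, and PLAUR overlapped. In edgeR's quasi-likelihood test 0 of the 4 reached an adjusted p under 0.05 over 12056 genes, the threshold used here, which 1.09% of all tested genes did. At an unadjusted p under 0.05, 3 of the 4 were counted, against 1652 of the 12056 genes. Groups that did not overlap were seen in 3 of the 4 and in 20% of all tested genes (11.2% with 41C above and 8.84% with 41C below). Limma-voom also called 0 of the 4. DESeq2 called 0, gave PLAU an adjusted p of 0.0696 and left the other 3 without an adjusted p, since its filter on mean counts removed 8414 genes. DESeq2 without that filter, an alternative chosen after the data had been seen, called SERPINE2 higher and PLAT lower.

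**Figure D2:**
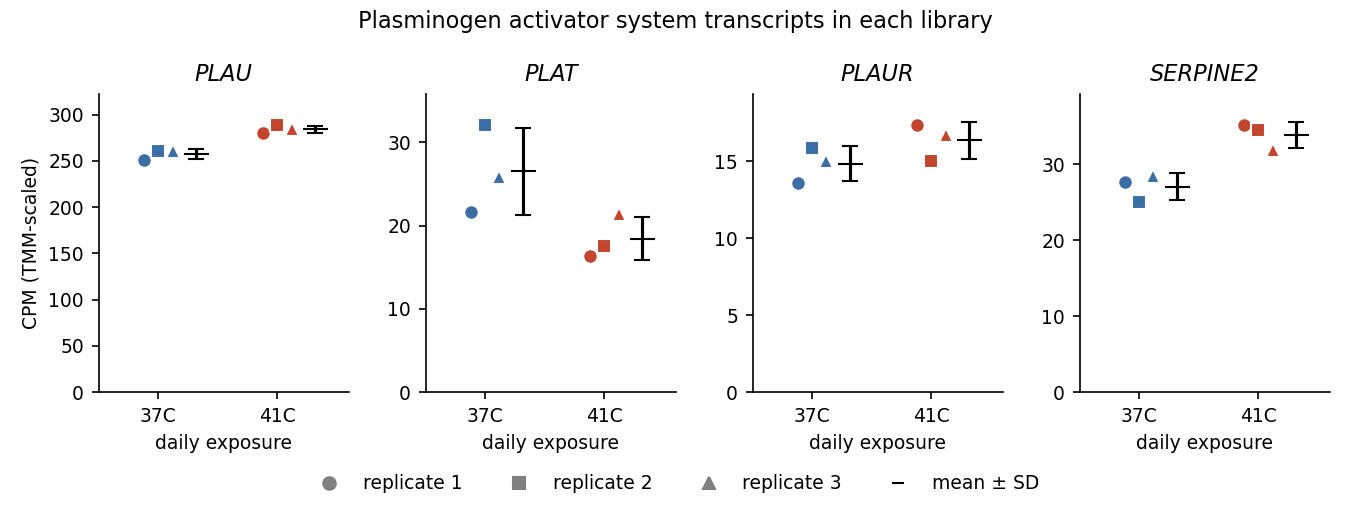
CPM scaled by TMM factors (vertical axes, from 0) of each gene in the 3 libraries at 37C (blue) and the 3 at 41C (red), with the replicate shown by the symbol and the mean ± SD in black. The groups are apart in PLAU, PLAT and SERPINE2 and overlap in PLAUR; for PLAT, replicate 1 at 37C and replicate 3 at 41C nearly touch, at 21.7 and 21.4 CPM.

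PLAU, the main activator transcript in these cells, had 250.8, 260.4 and 260.4 CPM in 37C replicates 1, 2 and 3 and 280.3, 288.4 and 284.2 CPM in 41C replicates 1, 2 and 3. Libraries within a group lay close together, with a coefficient of variation of 2.16% at 37C and 1.42% at 41C, and the groups did not overlap. These values rested on 4995 to 5942 counts per library. The log2 change was 0.14 ± 0.04 (SE; 95% interval 0.06 to 0.23), with an edgeR adjusted p of 0.111. Leaving out 37C replicate 3 brought it past the threshold (adjusted p = 0.0195 in edgeR, log2 change 0.15), and leaving out any other library did not (adjusted p = 0.237 to 0.425 in edgeR). Its interval has an upper bound of 1.17-fold.

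PLAT, the fibrin-directed activator, lies at chr8:42175233-42207724 on the minus strand and overlaps no other annotated gene. It had 21.7, 32 and 25.9 CPM at 37C and 16.4, 17.6 and 21.4 CPM at 41C. The 37C libraries were uneven, with replicate 2 highest, and the lowest of them was just above the highest at 41C. Their coefficient of variation was 19.6%, whereas counting error alone at 432 to 633 counts gives 3.97 to 4.81%. The log2 change was -0.53 ± 0.15 (SE; 95% interval -0.87 to -0.19), with an edgeR adjusted p of 0.166. It was -0.37 without 37C replicate 2 (adjusted p = 0.370 in edgeR) and -0.66 without 37C replicate 1, where it passed (adjusted p = 0.00351 in edgeR). Among all tested genes, 1.64% had a log2 change as low as that of PLAT or lower.

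PLAT is also known from vascular endothelium, and 4 markers of that cell type were examined beside it. Of these, 1 was highest and lowest in the same libraries as PLAT, while VWF and PECAM1 were not. CDH5, which encodes the endothelial cadherin, had 18.5, 26.6 and 23.5 CPM at 37C and 16.0, 16.5 and 20.9 CPM at 41C, highest in 37C replicate 2 and lowest in 41C replicate 1. There were 1.17, 1.2 and 1.1 counts of PLAT per count of CDH5 at 37C and 1.02, 1.06 and 1.02 at 41C. The log2 change of CDH5 was -0.36 ± 0.14 (adjusted p = 0.303 in edgeR), and its groups overlapped. The 4 endothelial markers summed to 20.7 to 30.3 CPM at 37C and 18.8 to 22.8 CPM at 41C. VWF, the von Willebrand factor gene, had counts of 38, 65 and 38 in the 37C libraries and of 50, 42 and 35 in the 41C libraries. PECAM1 had counts of 7, 7 and 8 in the 37C libraries and of 8, 3 and 2 in the 41C libraries, and TEK had 0 or 1 in each library. Over all libraries VWF was highest in 37C replicate 2, as PLAT was. Within the 41C group VWF and PECAM1 were highest in replicate 1, where PLAT was lowest. The samples were all of the HaCaT line, and whether any other cells had a part in the PLAT result was not tested. In bulk RNA fewer cells of a type and less RNA per cell cannot be told apart.

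PLAUR, the receptor that holds urokinase at the cell surface, had 13.6, 15.9 and 15.0 CPM at 37C and 17.3, 15.0 and 16.7 CPM at 41C. The groups overlapped, since 41C replicate 2 lay below 37C replicate 2. The gene had 271 to 361 counts per library, so that counting error alone gives a coefficient of variation of 5.26 to 6.07%, close to the observed 7.77% at 37C and 7.23% at 41C. The log2 change was 0.14 ± 0.10 (SE; 95% interval -0.07 to 0.35), with an edgeR adjusted p of 0.571. The mean difference was about that of PLAU, and its interval runs from 0.956-fold to 1.27-fold.

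SERPINE2, the inhibitor, had 27.7, 25 and 28.4 CPM at 37C and 35.1, 34.5 and 31.9 CPM at 41C. The groups did not overlap, with the lowest library at 41C above the highest at 37C. The log2 change was 0.32 ± 0.08 (SE; 95% interval 0.16 to 0.48), and the edgeR adjusted p of 0.0528 lay just above the threshold. It passed without 37C replicate 1 (adjusted p = 0.0477 in edgeR) or 37C replicate 3 (adjusted p = 0.00322 in edgeR), and the adjusted p was 0.341 without 37C replicate 2 and 0.115 to 0.292 without 1 library at 41C. Its log2 change lay at percentile 97.8 of all tested genes.

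Log2 changes over all genes went with gene length (Spearman rho 0.254 across 12056 genes, which are not independent replicates), and the rho was 0.0697 without 37C replicate 3. All 4 genes are shorter than the median of 4038 bases, at 2456 bases for PLAU, 2574 for SERPINE2, 3062 for PLAT and 3143 for PLAUR. With the trend on length removed from each library, the log2 changes were 0.17 for PLAU, 0.34 for SERPINE2, 0.15 for PLAUR and -0.51 for PLAT. SERPINE2 then passed (adjusted p = 0.0310 in edgeR), while PLAU had an edgeR adjusted p of 0.0659.

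Ratios within a library do not depend on how libraries are scaled. PLAU made up 93.5, 91.0 and 92.6% of the summed FPKM of both activators at 37C and 95.5, 95.3 and 94.3% at 41C. The urokinase share was higher in each library at 41C than in any at 37C, by 2.68 percentage points on average (exact two-sided permutation p = 0.1, adjusted p = 0.15 over the 3 ratios). With 3 libraries against 3, 0.1 is the smallest p this test can give. SERPINE2, the inhibitor, had 0.0984, 0.0835 and 0.0964 of the summed activator FPKM at 37C and 0.114, 0.109 and 0.101 at 41C. This ratio was also higher in each library at 41C than in any at 37C (exact two-sided permutation p = 0.1, adjusted p = 0.15). PLAU per PLAUR, the transcripts of the ligand over those of its receptor, was 22.2 ± 1.31 at 37C and 22.3 ± 1.98 at 41C (SD, n = 3), with overlapping groups (exact two-sided permutation p = 1.00). The sum of both activators was 110.6, 117.1 and 114.5 FPKM at 37C and 119.3, 122.5 and 120.9 FPKM at 41C. The mean of PLAU was 9.61 FPKM higher at 41C and that of PLAT differed by -2.74 FPKM.

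**Figure D3:**
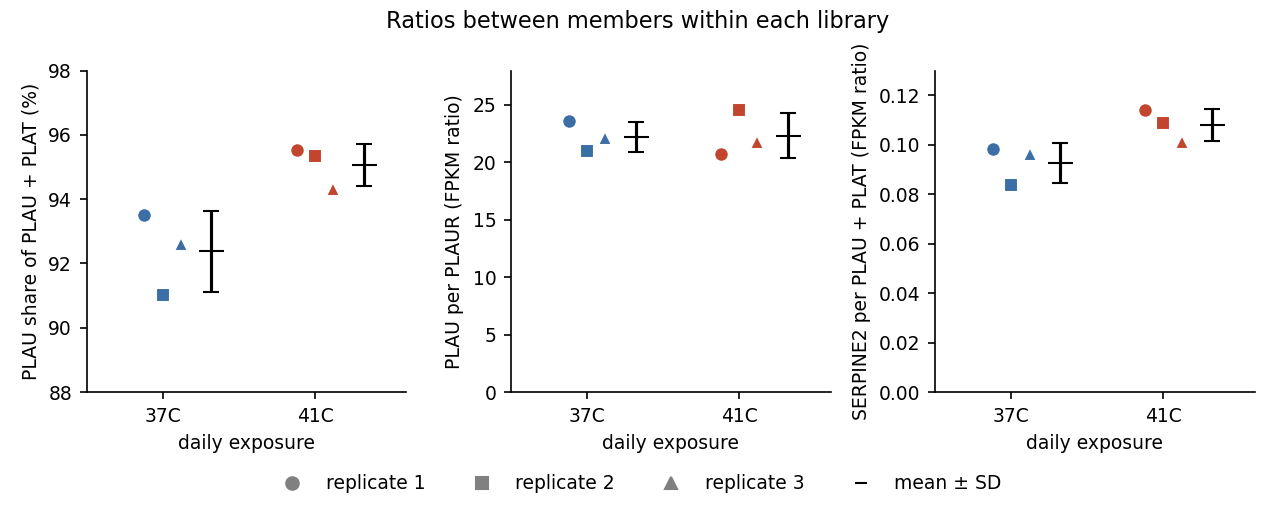
The FPKM share of PLAU in both activators (axis from 88 to 98%), PLAU per PLAUR and SERPINE2 per summed activators (axes from 0) in each library at 37C (blue) and 41C (red), with the mean ± SD in black. The first and the third ratio are higher in all 3 libraries at 41C than in any at 37C, and PLAU per PLAUR overlaps.

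Other genes of the pathway were taken from lists chosen for role, with earlier results of these data known. The counts below are therefore no independent test of the lists. Of 78 genes, 72 had a row and 56 could be tested, of which 9 rose and 0 fell (edgeR adjusted p under 0.05), against 0.821% of all tested genes higher and 0.265% lower. Their median log2 change was 0.04, and that of all tested genes was 0.00. Leaving out replicate 2 of either group brought the 9 calls to 0, and leaving out replicate 1 or 3 of the 41C group brought them to 2. There were 11 calls without 37C replicate 1 and 13 without 37C replicate 3, in each case with 1 gene lower.

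Among inhibitors other than SERPINE2, SERPINB2, which encodes plasminogen activator inhibitor 2, had 17.4 ± 0.545 FPKM at 37C and 18.2 ± 0.546 FPKM at 41C (SD, n = 3). Its groups overlapped in CPM, and its log2 change was 0.08 ± 0.07 (adjusted p = 0.654 in edgeR). SERPINF2, the plasmin inhibitor alpha-2-antiplasmin, had a total of 265 counts at 37C and 214 counts at 41C, with a log2 change of -0.35 ± 0.18 (adjusted p = 0.393 in edgeR).

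Partners of the urokinase receptor in the membrane held 4 of the genes that rose, out of 8 tested, while 0 fell, and their median log2 change was 0.28. Of all tested genes 0.821% rose, and the list was chosen with earlier results known. The receptor has no cytoplasmic part and is known to signal through integrins and the EGF receptor. ITGA5, a fibronectin receptor subunit, rose from 14.0 ± 1.91 to 20.2 ± 1.49 CPM (SD, n = 3; adjusted p = 0.0221 in edgeR, log2 change 0.53 ± 0.11). ITGB5, a vitronectin receptor subunit, rose from 163.7 ± 9.09 to 200.6 ± 6.94 CPM (adjusted p = 0.00823 in edgeR, log2 change 0.29 ± 0.05). The receptor kinase EGFR rose from 754.3 ± 25.7 to 913.0 ± 40.8 CPM (adjusted p = 0.00596 in edgeR, log2 change 0.28 ± 0.05). The laminin receptor subunit ITGA3 rose 1.14-fold, a log2 change of 0.19 (adjusted p = 0.0347 in edgeR). This call ended with the length correction at a log2 change of 0.18 (adjusted p = 0.0513 in edgeR) and with upper-quartile factors at 0.17 (adjusted p = 0.0883 in edgeR). ITGB1 and the caveolar protein gene CAV1 had log2 changes of 0.06 and 0.04. Vitronectin itself, the matrix ligand of the receptor, had a total of 4 counts at 37C and 0 at 41C (gene VTN).

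Receptors that take up complexes of activator and inhibitor held 3 genes that rose, out of 8 tested, while 0 fell, and their median log2 change was 0.14. This list too was chosen with earlier results known, and 0.821% of all tested genes rose. LRP1, the main clearance receptor of such complexes, rose from 251.7 ± 6.30 to 287.3 ± 10.3 CPM (SD, n = 3; adjusted p = 0.0480 in edgeR, log2 change 0.19 ± 0.04). SORL1, a sorting receptor that also binds the urokinase receptor complex, rose 1.14-fold (adjusted p = 0.0384 in edgeR, log2 change 0.19 ± 0.04). IGF2R, which binds the urokinase receptor and plasminogen, rose 1.2-fold (adjusted p = 0.0156 in edgeR, log2 change 0.26 ± 0.05). All 3 calls ended with the length correction, at log2 changes of 0.14, 0.16 and 0.21 for LRP1, SORL1 and IGF2R (adjusted p = 0.185, 0.116 and 0.0751 in edgeR). With upper-quartile factors LRP1 and SORL1 were both at 0.17 and did not pass (adjusted p = 0.0925 and 0.0832 in edgeR), and LRP1 did not pass in limma-voom either (adjusted p = 0.0543). MRC2, LRP8 and the receptor chaperone gene LRPAP1 missed the threshold, at log2 changes of 0.29, -0.06 and 0.04.

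Plasminogen (gene PLG) had no row and could not be tested. The proteins that bind it at the cell surface gave 0 of 4 tested genes past the threshold. An unadjusted p under 0.05 in edgeR was found in 1 of the 4, and in 1652 of all 12056 genes tested. ANXA2 and S100A10, which form the annexin A2 tetramer, were abundant, at 2183 ± 83.7 and 597.8 ± 39.0 CPM at 37C (SD, n = 3), and had log2 changes of 0.04 ± 0.04 and 0.14 ± 0.05 (adjusted p = 0.770 and 0.206 in edgeR). ENO1, a glycolytic enzyme that also binds plasminogen at the surface, had a log2 change of 0.02 ± 0.04, and the plasminogen receptor gene PLGRKT one of -0.07 ± 0.11.

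On the thrombin side, where SERPINE2 also acts, 0 of 8 tested genes passed. An unadjusted p under 0.05 in edgeR was found in 3 of the 8, and in 1652 of all 12056 genes tested. F3, which encodes tissue factor, had 547.0 ± 48.4 CPM at 37C and 610.5 ± 32.1 CPM at 41C (SD, n = 3; adjusted p = 0.293 in edgeR, log2 change 0.16 ± 0.06). The anticoagulant genes THBD and TFPI had log2 changes of -0.12 ± 0.05 and -0.21 ± 0.10 (adjusted p = 0.291 and 0.342 in edgeR). F2R, the main thrombin receptor gene, had a log2 change of 0.10 ± 0.06.

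The Ly6/uPAR domain family shares the three-finger fold of the urokinase receptor. Of its 8 tested genes 0 passed, and their median log2 change was -0.12. An unadjusted p under 0.05 in edgeR was found in 3 of the 8, and in 1652 of all 12056 genes tested. A positive log2 change was found in 2 of the 8, and in 6133 of all 12056 genes tested. LY6E had a log2 change of -0.15 ± 0.05, LYPD5 one of -0.28 ± 0.10 and LY6D one of -0.55 ± 0.24 (adjusted p = 0.153, 0.233 and 0.330 in edgeR). LYPD3, another membrane-anchored relative found in keratinocytes, had a log2 change of 0.19 ± 0.10 (adjusted p = 0.438 in edgeR). Among other pericellular serine proteases and their inhibitors 0 of 5 passed and 0 had an unadjusted p under 0.05 in edgeR. ST14, the matriptase gene, had a log2 change of 0.04 ± 0.05, which turned to -0.02 without 41C replicate 3, and its inhibitor SPINT1 one of 0.10 ± 0.05. MST1, which encodes a growth factor precursor activated by such proteases, had 56 counts at 37C and 42 at 41C.

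**Figure D4:**
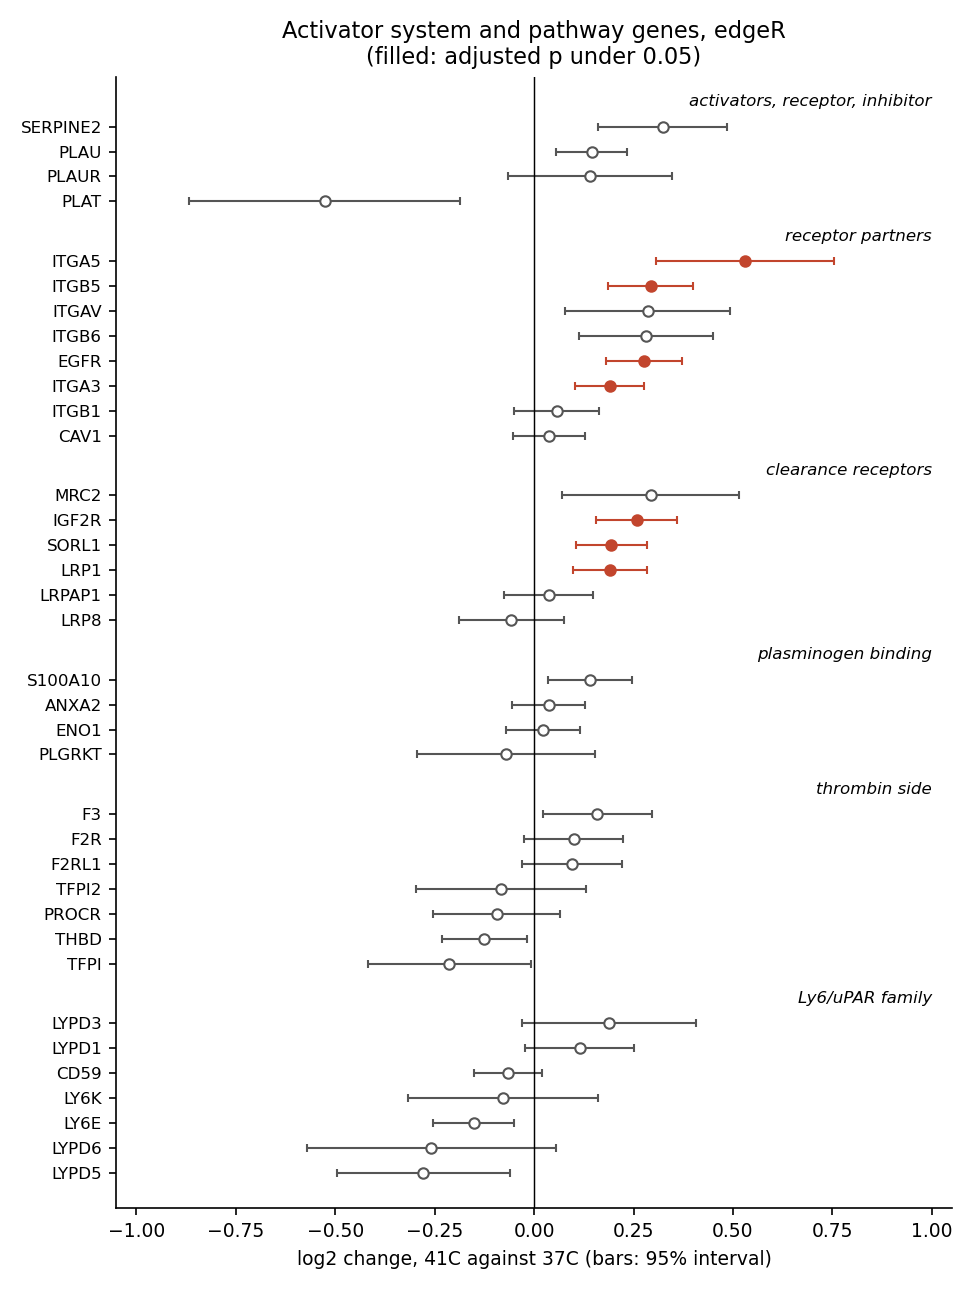
Log2 change at 41C against 37C (horizontal axis, edgeR) with its 95% interval for the 4 genes and genes of 5 pathway lists, chosen from those whose mean log2 CPM was 2 or more. Among the genes drawn, filled red points passed the threshold and lie among receptor partners and clearance receptors, and PLAT lies lowest. JUN, which also passed, belongs to a list that is not drawn. LY6D, with a log2 change of -0.55, fell under the cut on CPM.

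Transcription factors known to act on the PLAU or PLAUR promoters were examined beside them. Of 11 tested 1 rose and 0 fell, and their median log2 change was 0.02, while 0.821% of all tested genes rose. JUN, an AP-1 subunit, rose from 39.9 ± 4.09 to 50.2 ± 0.702 CPM (SD, n = 3; adjusted p = 0.0401 in edgeR, log2 change 0.33 ± 0.07). The call ended without 37C replicate 2 (log2 change 0.25, adjusted p = 0.300 in edgeR) and without any 1 of the 41C libraries (adjusted p = 0.149 to 0.230 in edgeR). Its AP-1 partners FOSB and FOSL1 had log2 changes of 0.48 ± 0.15 and 0.21 ± 0.12 (adjusted p = 0.154 and 0.492 in edgeR), and FOSB had 251 counts at 37C and 360 at 41C.

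The genes whose pattern over the 6 libraries lay nearest to each of the 4 were found by the root mean square difference of centred log2 CPM, among the 6207 genes whose mean log2 CPM was 5 or more. This is a description without a test, and all values share the same libraries. A shared direction, or a shared highest or lowest library, follows largely from how these genes were chosen. Among the nearest to SERPINE2 were ZNF532, a zinc finger gene (0.0165), and LAMA3 (0.0332), the gene of a basement membrane laminin subunit. SERPINE2 itself deviated by 0.176 on this scale. ZNF532 and LAMA3 rose, with log2 changes of 0.31 and 0.37 (adjusted p = 0.0302 and 0.00170 in edgeR). Nearest to PLAT were SERPINB1, a serpin that inhibits neutrophil proteases (0.0755), the prostaglandin E synthase gene PTGES (0.0802) and ELF3, an epithelial ETS factor (0.0852), with a deviation of 0.325 for PLAT itself. Their log2 changes were -0.45, -0.44 and -0.49, and none of the 3 passed (adjusted p = 0.185, 0.175 and 0.206 in edgeR). Like PLAT, all 3 were highest in 37C replicate 2 and lowest in 41C replicate 1. Nearest to PLAU were ADAR, the RNA-editing enzyme (0.00953), APP (0.0105) and MEN1 (0.0137), with a deviation of 0.0754 for PLAU. Nearest to PLAUR were SFXN3, NHEJ1 and DHDDS (0.0412, 0.0475 and 0.0521), with a deviation of 0.113 for PLAUR.

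**Figure D5:**
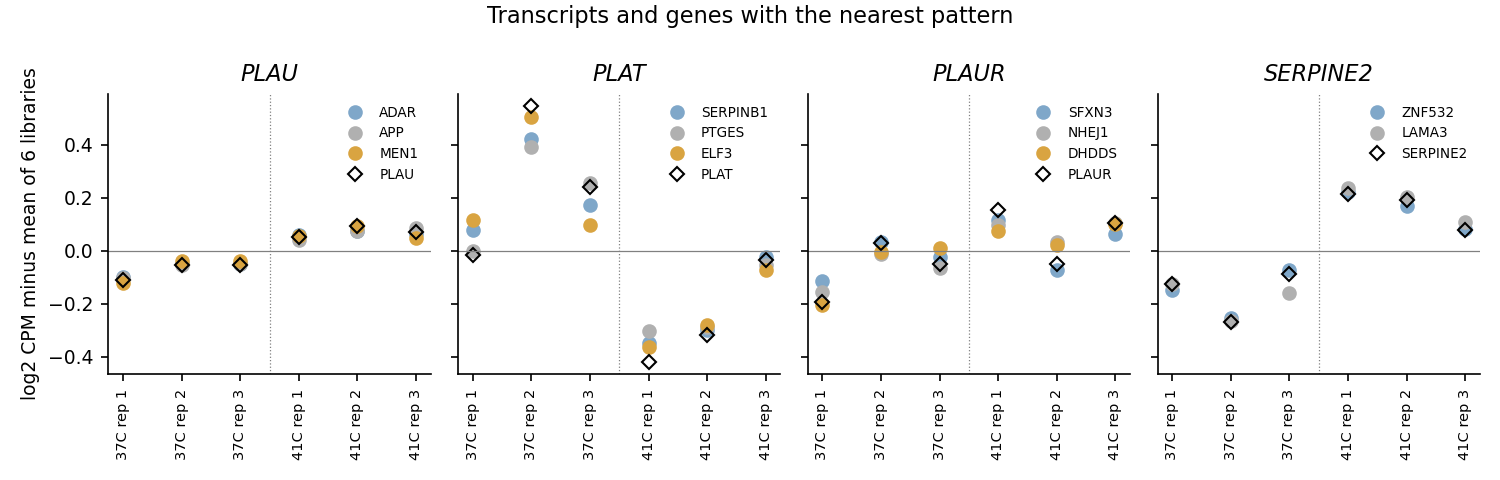
Log2 CPM minus the mean of the 6 libraries (vertical axis) for each gene (open diamonds) and 2 or 3 of the genes with the nearest pattern (filled circles), library by library. In the PLAT panel 37C replicate 2 is highest and 41C replicate 1 lowest for all 4 genes shown, and in the SERPINE2 panel 37C replicate 2 is lowest.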

How the data were processed

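Per the labels' protocols, a mirVana kit gave total RNA and a TruSeq Stranded mRNA kit the libraries. The submitters' processing notes name Trimmomatic 0.36, HISAT2 and GRCh38.p13. Neither counter, annotation nor strand setting is given in the sources used here. The deposited counts are whole reads per gene symbol, not normalized. The authors' FPKM equals its deposited count scaled by 1 fixed length per gene and by the library total, within 0.01% for 100% of nonzero values, so it is no independent measurement.

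The whole count table was fitted with edgeR 4.0.16 in R 4.3.3 (filterByExpr, TMM factors, robust quasi-likelihood test, two-sided), with Benjamini-Hochberg adjustment over 12056 genes. Log2 changes are 41C against 37C with SE, CPM are scaled by TMM factors, and intervals are 95%. With 3 libraries against 3 the test relies on spread shared across genes. The procedure was tested on simulated data. It recovered 24% of simulated 1.2-fold changes, 61.2% of 1.3-fold, 78% of 1.5-fold and 91.8% of 2-fold changes. Of its 139 calls 13 were false, and data simulated without change gave 1 call. The changed genes were drawn at random from all tested genes, so these shares are not the recovery for PLAU or PLAUR themselves. Each gene was simulated on its own, so trends shared by genes within a library were absent. Alternatives used DESeq2 1.42.0, limma 3.58.1, other scalings and filters, log2(FPKM + 1) or log2(FPKM + 0.1), a length correction (spline, 4 degrees of freedom), a replicate block and each library left out. The genes and lists were chosen with earlier results of these data known. Named pathway genes were those past the threshold and the 3 with the smallest p of each list, and for each of the 4 genes the 3 with the nearest pattern; MRC2, LRP8, LRPAP1, ITGB1, CAV1, VTN, ENO1, F2R, LYPD3 and CDH5 were added after their values were seen. Some genes this rule names are not reported here.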

Additional observations from a re-analysis of the deposited data

How the results depend on the processing

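SERPINE2, PLAU, PLAUR and PLAT kept the direction of their log2 change under all 17 alternatives, and the cause of the differences was not tested. Of the 4 genes 1 passed (SERPINE2) without a filter on low counts (0.32, edgeR adjusted p = 0.0153) and 1 (SERPINE2) with the length correction (0.34). DESeq2 without independent filtering called 2, SERPINE2 (0.32, adjusted p = 0.0418) and PLAT (-0.53, adjusted p = 0.0117). With the replicate block 3 passed, PLAU (0.14, edgeR adjusted p = 0.0257), SERPINE2 (0.32, edgeR adjusted p = 0.0229) and PLAT (-0.52, edgeR adjusted p = 0.0189). The labels do not say whether the replicate numbers mark a shared batch. Same-numbered libraries deviated from their group means with correlations of 0.082, -0.019 and 0.077 over genes, and not every library correlated best with its own number. Leaving out 1 library gave log2 changes of 0.12 to 0.15 for PLAU, -0.66 to -0.37 for PLAT, 0.08 to 0.20 for PLAUR and 0.27 to 0.36 for SERPINE2, and 0 to 2 of the 4 passed. PLAU per PLAUR differed by 0.0866 and turned to -0.544 without 37C replicate 2 and -1.02 without 41C replicate 2; it ranged from -1.02 to 0.900. The log2 change of ST14 was 0.035 and ranged from -0.016 (reversed, without 41C replicate 3) to 0.067 with 1 library left out.

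Over all genes the 131 calls became 217 with DESeq2, 284 without a filter, 438 with the replicate block, 11 with log2(FPKM + 1) and 40 with log2(FPKM + 0.1), and 5 to 805 with 1 library left out. With upper-quartile factors 57 were higher and 53 lower, against 99 and 32. The 9 pathway calls became 0 with log2(FPKM + 1), 1 with log2(FPKM + 0.1) and 0 to 13 with 1 library left out. Of the 4 genes PLAUR had the fewest counts, at 271 to 361 per library, and counting errors cover counting only.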
